A study of Mus musculus with 10 samples.

Results

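The kinesin superfamily comprised 42 of the 48795 genes of a count table from adult mouse neural stem cell (NSC) cultures, namely every gene whose symbol is Kif or Kifc followed by a number and at most one letter from a to c. Of these, 39 had at least 10 counts in 2 or more libraries and were tested together with all other genes that met this minimum (16797). All 39 also met it within the neurospheres alone and within the 2+1 DIV libraries alone. By their textbook roles, 13 members (12 tested) were classed as mitotic, 17 (all tested) as transport motors and 12 (10 tested) as other kinesins, which act at microtubule ends, cilia or centrioles or are poorly defined.

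Kinesins are motor proteins that hydrolyse ATP to walk along microtubules or to take microtubules apart at their ends. Mitotic kinesins push the spindle poles apart, align and segregate chromosomes and build the midzone and midbody at which daughter cells separate, and many are most abundant in dividing cells. Transport kinesins carry vesicles, mitochondria, endosomes and ciliary cargo, and several of them are known for their work in axons and dendrites.

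RNA-seq was carried out on RNA labelled as polyA in 10 libraries from cells of the subependymal zone (SEZ) of 10-week-old mice. The cells were taken at proliferation and at the onset of differentiation. WT neurospheres (3 libraries) and p27KO neurospheres (2 libraries) had been grown for 3 days in vitro (DIV) with 20 ng/ml EGF and 10 ng/ml FGF. WT cells (3 libraries) and p27KO cells (2 libraries) at 2+1 DIV had been attached to Matrigel for 2 days with FGF, and were collected 24 h after the mitogens were replaced by 2% fetal bovine serum (FBS). The p27KO genotype is a knockout of Cdkn1b, which encodes the CDK inhibitor p27, and per the study's methods the mutation is carried by the mouse line and not limited to a cell type. A change from neurospheres to 2+1 DIV therefore combines time, attachment, loss of mitogens and serum. The series calls the libraries biological replicates, but the labels do not tie them to separate animals, so that p-values measure the spread between these libraries. Free text in the labels of the p27KO libraries describes WT cells, whereas their titles and genotype field give p27KO, which was used here.

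Totals ranged from 19190068 to 25291674 counts per library. Cdkn1b was not lost in the libraries labelled p27KO, in which it stood at 90.7 to 113.8 CPM (counts per 1000000 of the library total) in neurospheres and 137 to 140.2 CPM at 2+1 DIV, against 102.7 to 112 and 205 to 209 CPM in WT, and the part of the gene that the mutation removes was not examined. Xist stood at 2258 to 3595 CPM in the p27KO libraries and at most 2.57 CPM in WT, and the sum of 4 Y-linked genes at 189 to 533 CPM in WT and at most 0.585 CPM in p27KO, so that sex and genotype cannot be told apart in any comparison between genotypes. Among NSC markers, Nes (mean 1732 CPM), Vim and Slc1a3 were abundant in WT neurospheres, and the summed endothelial and microglial markers reached at most 0.443 and 0.553 CPM. Astrocyte and neuronal genes were present at uneven levels at 2+1 DIV in WT. Of the astrocyte genes, Gfap averaged 111, Aqp4 238, Aldh1l1 316 and S100b 12.4 CPM. Of the neuronal genes, Map2 averaged 1531, Dcx 35.2, Syt1 8.77, Tubb3 8.29, Snap25 4.06, Rbfox3 3.53 and Stmn2 0.0571 CPM.

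Sequences in front of the mitotic kinesins are given first, because most of these genes share a short element there. The cell cycle homology region (CHR) is a known element of genes expressed late in the cell cycle and is often found near a CCAAT box, which the factor NF-Y binds. RefSeq promoter windows (GRCm38.p6, 250 bases before to 50 after a start) were at hand for 33 of the 42 kinesins, with 37 windows among 32851 of all genes. Stretches from 100 bases before to 30 bases after the start of 6 mitotic kinesins are printed 5′ to 3′ on the strand of the gene, with CHR letters (TTTGAA, or TTCAAA when read on the other strand) and CCAAT boxes (CCAAT or ATTGG) in capitals. Of the 8 with CHR letters in this stretch, 5 of the 6 that also hold a CCAAT box there are shown, and Kif15 as 1 of the 2 that do not.
Kif11 (chr19:37376282-37376411, plus strand): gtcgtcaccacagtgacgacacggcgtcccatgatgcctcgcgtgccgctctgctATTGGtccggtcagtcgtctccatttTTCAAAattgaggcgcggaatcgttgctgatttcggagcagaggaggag
Kif23 (chr9:61946770-61946899, minus strand): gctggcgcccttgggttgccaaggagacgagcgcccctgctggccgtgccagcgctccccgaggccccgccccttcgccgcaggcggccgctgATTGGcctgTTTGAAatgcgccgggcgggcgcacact
Kif4 (chrX:100625965-100626094, plus strand): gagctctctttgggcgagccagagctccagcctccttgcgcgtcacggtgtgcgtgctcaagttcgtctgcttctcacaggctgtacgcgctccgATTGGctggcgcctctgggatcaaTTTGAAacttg
Kif18b (chr11:102925095-102925224, minus strand): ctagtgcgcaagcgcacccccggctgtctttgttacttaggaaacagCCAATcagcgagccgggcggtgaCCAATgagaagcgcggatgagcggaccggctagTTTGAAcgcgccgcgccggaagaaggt
Kif22 (chr7:127042391-127042520, minus strand): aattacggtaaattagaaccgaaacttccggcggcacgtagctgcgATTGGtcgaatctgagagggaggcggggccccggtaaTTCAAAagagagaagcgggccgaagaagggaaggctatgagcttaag
Kif15 (chr9:122950981-122951110, plus strand): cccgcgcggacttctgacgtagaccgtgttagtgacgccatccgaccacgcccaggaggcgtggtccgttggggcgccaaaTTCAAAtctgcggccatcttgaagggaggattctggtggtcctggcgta
The CCAAT boxes of the first 5 follow from this choice, and Kif15 and Kif20b hold none in the whole window.

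Both strands of every window were searched for the CHR letters TTTGAA or TTCGAA, for CCAAT, and for the E2F letters TTTGGCGC, TTTCCCGC, TTTGCCGC or TTTCGCGC. No motif contains another, although neighbouring matches may share end bases. The 12 windows of mitotic kinesins include that of Kif2b, which was not tested, and none was at hand for Kif20a. The CHR letters occurred in 10 of 12 windows of mitotic kinesins (83.3%), in 1 of 13 windows of transport kinesins (7.69%, Kif1a), in 4 of 12 windows of other kinesins (33.3%) and in 19.2% of all windows. Within 50 bases of the start, they were found in 8 of the 12 mitotic windows (66.7%) and in 1 of 13 transport windows (7.69%). There they were also found in 3 of 12 windows of other kinesins (25%, Kif24, Kif26b and Kifc5b) and in 5.31% of all windows. CCAAT was found in 66.7% of mitotic, 30.8% of transport, 41.7% of other and 37.4% of all windows. Both motifs together were found in 58.3% of mitotic windows, 0 of 13 transport windows, 33.3% of windows of other kinesins and 7.52% of all windows. E2F letters were present in 2 of 12 mitotic windows (Kif15 and Kif18a) and in 2.26% of all windows. Among the other kinesins, Kif24, Kif26b, Kif27 and Kifc5b held both CHR and CCAAT. From neurospheres to 2+1 DIV in WT, Kif24 and Kifc5b fell (log2 fold changes of -1.95 and -3.06), and Kif26b and Kif27 rose (2.73 and 2.88). The motif hits are matches of letters, not binding sites, and the shares were not tested.

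**Figure D1:**
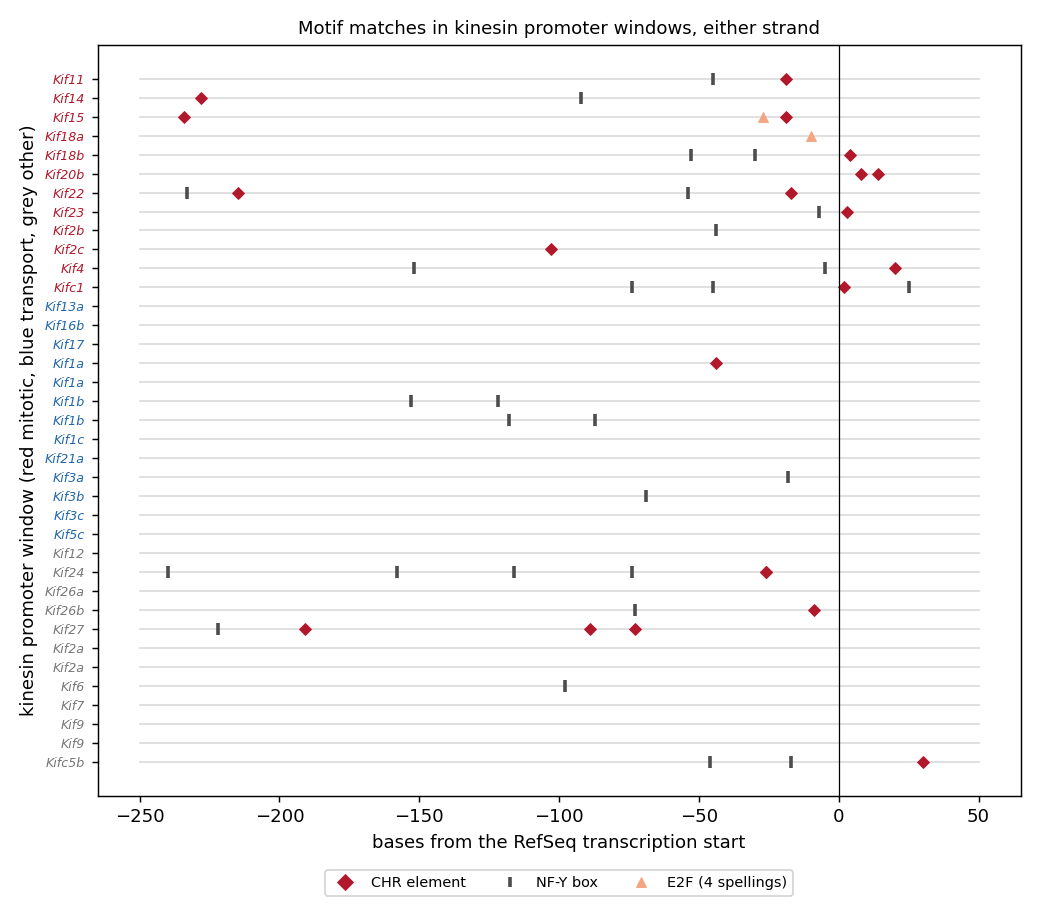
Positions of CHR, NF-Y (CCAAT) and E2F letters in 37 promoter windows of 33 kinesins, in bases from the RefSeq start (x axis), with 1 line per window (y axis; red mitotic, blue transport, grey other). CHR matches of the mitotic kinesins gather around the start, in 8 of 12 windows within 50 bases of it. There, 1 of 13 transport windows and 3 of 12 windows of other kinesins hold one.

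The first question was how the motors change when WT cells leave proliferation. All 12 tested mitotic kinesins fell from neurospheres to 2+1 DIV in WT, with log2 fold changes of -3.78 to -2.53 (median -3.29). Kif2a, which also acts at spindle poles but was classed among the other kinesins, fell by less (-0.65 ± 0.09). The 17 transport kinesins split into 8 that rose, 5 that fell and 4 that did not pass the test (median 0.25, range -1.41 to 2.34). Of all genes tested, 30.8% were called higher and 31.2% lower in the same comparison, with a median of 0.03. Under the study's own filter on low values, 11 of 16 transport kinesins rose and 5 fell in WT. Of the 12859 genes tested under that filter, 8667 were called in either direction. The summed level of the mitotic class went from 979 ± 37.6 CPM (SD, n = 3) in WT neurospheres to 113 ± 29.6 CPM at 2+1 DIV, and that of the transport class from 2671 ± 44.7 to 3447 ± 103.4 CPM. The rise of the transport sum lay mostly in Kif1b (560 ± 34.5 to 1328 ± 140 CPM), while other members moved in both directions. The WT libraries of both stages did not overlap for 12 of 12 mitotic, 16 of 17 transport and 9 of 10 other kinesins, where they did not overlap for 68.4% of all genes tested. In bulk RNA, fewer cells of a type and less RNA per cell cannot be told apart. Tests throughout were quasi-likelihood tests of edgeR, with p-values adjusted after Benjamini and Hochberg over the 16797 genes, and fold changes are given as fitted log2 values ± SE. The SE was derived from the test, as the absolute log2 fold change divided by the square root of the F statistic.

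In the libraries labelled p27KO, the same 12 mitotic kinesins fell as well, with log2 fold changes of -2.12 to -1.27 (median -1.72). Their summed level was 1025 ± 49.3 CPM (SD, n = 2) in p27KO neurospheres and 332 ± 29.8 CPM at 2+1 DIV. Of the transport kinesins, 6 rose and 4 fell (median 0.33), where 24.3% of all genes tested were called higher and 27.3% lower. Expressed per kb of exon, so that genes can be compared, the mitotic class made up 34.5 ± 0.886% of the summed level of all kinesins in WT neurospheres and 4.75 ± 1.27% at 2+1 DIV, against 34.6 ± 0.727% and 12.2 ± 1.29% in p27KO. Proliferation markers moved with the mitotic class: the sum of Mki67 and Top2a was 1470.5 to 1614 CPM in WT neurospheres, 110.4 to 204 CPM in WT at 2+1 DIV, 1611 to 1708 CPM in p27KO neurospheres and 533 to 616 CPM in p27KO at 2+1 DIV. Their part in the result was not tested.

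**Figure D2:**
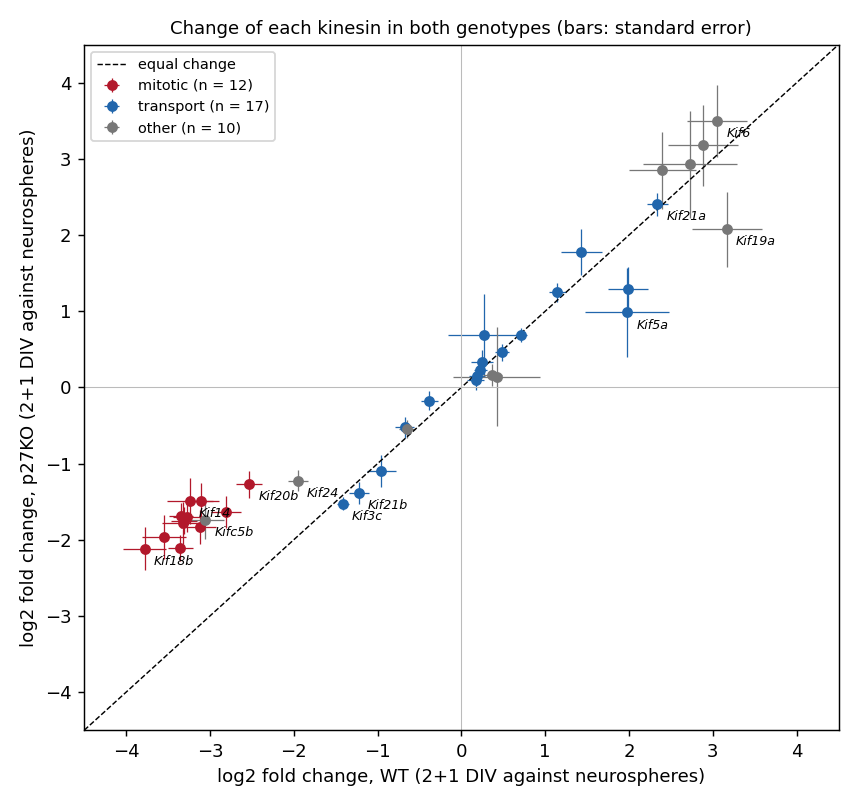
Log2 fold change from neurospheres to 2+1 DIV in WT (x axis) and p27KO (y axis) for the 39 tested kinesins, with standard errors and the line of equal change (dashed). Mitotic members (red) lie at -3.78 to -2.53 in WT and -2.12 to -1.27 in p27KO, above the line, while most transport members (blue) lie along it.

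Spindle motors come first among the mitotic members. Kif11 (ENSMUSG00000012443, GRCm38 chr19:37376403-37421859), which slides antiparallel microtubules apart to separate the spindle poles, was present at 199.5, 197 and 220.4 CPM in the WT neurospheres, 25.7, 16.7 and 26.3 CPM in the WT 2+1 DIV libraries, 239.8 and 188 CPM in the p27KO neurospheres and 72.0 and 69.0 CPM in the p27KO 2+1 DIV libraries. All libraries at 2+1 DIV were below all neurospheres, and those of WT were below those of p27KO. Its log2 fold change was -3.27 ± 0.17 in WT (adjusted p = 1.57e-07) and -1.70 ± 0.19 in p27KO (adjusted p = 5.28e-05). Kif15 (ENSMUSG00000036768, chr9:122951046-123018733), which helps to hold the spindle bipolar, was present at 77.9, 69.2 and 78.2 CPM in the WT neurospheres, 8.65, 6.01 and 9.21 CPM in the WT 2+1 DIV libraries, 86.3 and 74.9 CPM in the p27KO neurospheres and 27.6 and 26.2 CPM in the p27KO 2+1 DIV libraries. The 2 stages and, at 2+1 DIV, the genotypes did not overlap, and the log2 fold change was -3.34 ± 0.14 in WT (adjusted p = 6.68e-08) and -1.68 ± 0.16 in p27KO (adjusted p = 2.19e-05). Kifc1 (ENSMUSG00000079553, chr17:33875659-33890661), a motor that walks to the minus end and focuses spindle poles, was present at 73.4, 63.2 and 57.5 CPM in the WT neurospheres, 8.14, 5.39 and 6.96 CPM in the WT 2+1 DIV libraries, 74.5 and 70.5 CPM in the p27KO neurospheres and 18.7 and 17.4 CPM in the p27KO 2+1 DIV libraries. Its levels fell in both genotypes (-3.35 ± 0.15 in WT, -2.11 ± 0.17 in p27KO), with the lowest values in WT at 2+1 DIV.

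Motors that act on chromosomes and microtubule ends followed the same order of groups. Kif18b (ENSMUSG00000051378, chr11:102905529-102925124), which shortens astral microtubules, was present at 54.6, 49.9 and 48.2 CPM in the WT neurospheres, 5.85, 2.53 and 3.72 CPM in the WT 2+1 DIV libraries, 46.3 and 63.2 CPM in the p27KO neurospheres and 14.6 and 12.5 CPM in the p27KO 2+1 DIV libraries. It had the lowest estimate of the tested kinesins in WT (-3.78 ± 0.26, adjusted p = 1.56e-06) and changed by -2.12 ± 0.29 in p27KO (adjusted p = 0.000227). The estimate of Kif2c lay within its error in both genotypes, and those of Kifc1 and Kif22 in p27KO. Neurospheres and 2+1 DIV libraries did not overlap in either genotype. Kif2c (ENSMUSG00000028678, chr4:117159639-117182639), which takes microtubules apart at centromeres and so corrects wrong attachments, was present at 82.3, 75.2 and 82.5 CPM in the WT neurospheres, 9.21, 3.85 and 9.09 CPM in the WT 2+1 DIV libraries, 79.3 and 80.7 CPM in the p27KO neurospheres and 23.1 and 20.9 CPM in the p27KO 2+1 DIV libraries. The neurospheres of both genotypes overlapped, and the 2+1 DIV libraries of p27KO lay above those of WT. Its change was -3.55 ± 0.26 in WT and -1.96 ± 0.29 in p27KO. Kif4 (ENSMUSG00000034311, chrX:100625737-100727214), a chromosome-bound motor that works with Prc1 at the midzone, was present at 83.1, 91.5 and 96.2 CPM in the WT neurospheres, 11.8, 7.50 and 10.2 CPM in the WT 2+1 DIV libraries, 98.6 and 86.5 CPM in the p27KO neurospheres and 32.4 and 26.7 CPM in the p27KO 2+1 DIV libraries. It lies on the X chromosome and shares exon bases with Pdzd11 on the other strand, and its neurosphere libraries overlapped between genotypes. It changed by -3.31 ± 0.16 in WT and -1.75 ± 0.18 in p27KO. Kif22, which pushes chromosome arms away from the poles, and Kif18a, which limits the movement of aligned chromosomes, had log2 fold changes of -3.12 and -2.81 in WT and -1.84 and -1.64 in p27KO.

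Motors of cytokinesis were the last group. Kif23 (ENSMUSG00000032254, chr9:61915905-61946774), which forms the centralspindlin complex with Racgap1, was present at 70.3, 65.6 and 61.3 CPM in the WT neurospheres, 10.6, 5.18 and 9.05 CPM in the WT 2+1 DIV libraries, 69.3 and 63.0 CPM in the p27KO neurospheres and 27.4 and 23.1 CPM in the p27KO 2+1 DIV libraries. The groups ranked as for the spindle motors, without overlap between stages, and the log2 fold change was -3.10 ± 0.21 in WT (adjusted p = 1.31e-06) and -1.49 ± 0.24 in p27KO (adjusted p = 0.000595). Kif20a (ENSMUSG00000003779), which brings the chromosomal passenger complex to the midzone, was present at 121, 120.4 and 123 CPM in the WT neurospheres, 14.8, 7.63 and 16.8 CPM in the WT 2+1 DIV libraries, 113 and 126 CPM in the p27KO neurospheres and 41.8 and 32.8 CPM in the p27KO 2+1 DIV libraries. WT neurospheres were tightly grouped, and the lowest value was that of WT 2+1 DIV replicate 2. Its change was -3.33 ± 0.24 in WT and -1.78 ± 0.27 in p27KO. Kif14 (ENSMUSG00000041498, chr1:136466343-136531511), which acts with citron kinase at the midbody, was present at 48.2, 40.5 and 52.7 CPM in the WT neurospheres, 6.11, 2.86 and 7.16 CPM in the WT 2+1 DIV libraries, 57.9 and 57.0 CPM in the p27KO neurospheres and 24.0 and 19.9 CPM in the p27KO 2+1 DIV libraries. Its change was -3.24 ± 0.27 in WT and -1.49 ± 0.30 in p27KO, and its libraries at 2+1 DIV did not overlap between genotypes. Kif20b, needed for abscission, had the estimates nearest to 0 of the class in both genotypes (-2.53 ± 0.15 and -1.27 ± 0.18). In every one of the 12 mitotic members, replicate 2 was the lowest of the WT 2+1 DIV libraries, and without it the WT median was -3.08.

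**Figure D3:**
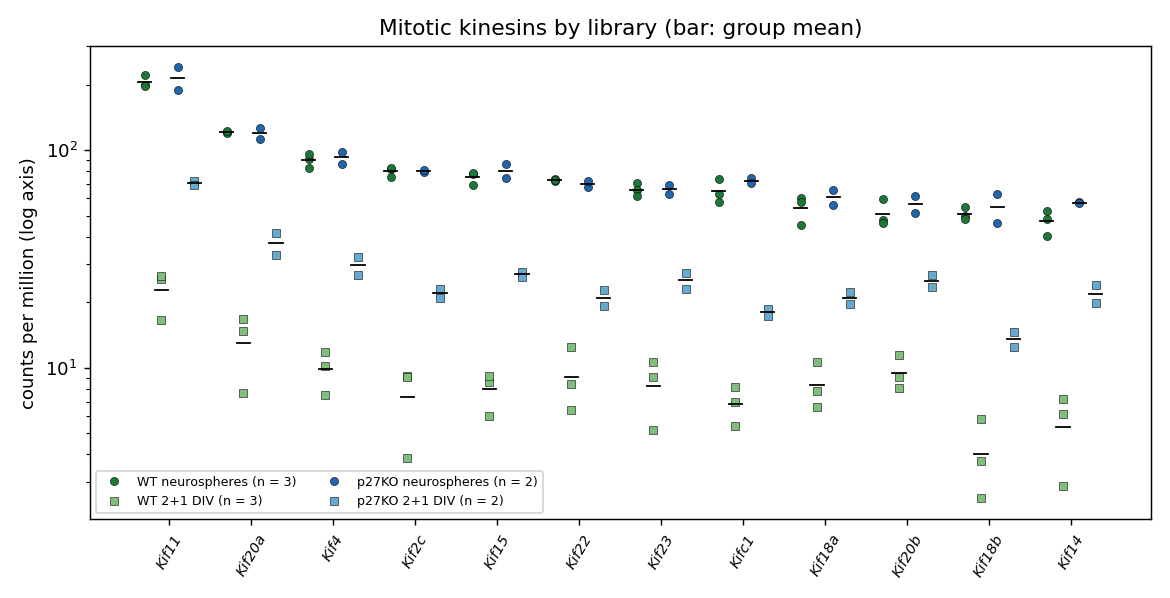
CPM (log axis) of the 12 tested mitotic kinesins in each of the 10 libraries, with points for libraries and bars for group means (circles, neurospheres; squares, 2+1 DIV; green, WT; blue, p27KO). For each gene the neurospheres of both genotypes are highest, the p27KO 2+1 DIV libraries lie between, and the WT 2+1 DIV libraries are lowest, for example at 16.7 to 26.3 for Kif11.

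Whether the fall differed between genotypes was tested as the interaction, the p27KO change minus the WT change. All 12 mitotic kinesins had a positive estimate (median 1.57, range 1.18 to 1.75), and 3 of them passed the test, namely Kif15 (1.66 ± 0.21, adjusted p = 0.0234), Kif4 (1.56 ± 0.23, adjusted p = 0.0246) and Kif11 (1.57 ± 0.24, adjusted p = 0.0316). In comparison, 0.28% of all genes tested were called higher in the interaction. All 12 had an unadjusted p under 0.05, and the other 9 had adjusted p-values of 0.055 (Kifc1) to 0.266 (Kif2c). With the replicate number as a block in the WT libraries, 8 mitotic members passed, and DESeq2 called all 12. Leaving out a library of the WT neurospheres, the p27KO neurospheres or the p27KO cells at 2+1 DIV brought the count to 0, whichever it was, as it did for all genes tested. In these 7 fits the estimates of the 3 kinesins were 1.41 to 1.74, and all 12 mitotic members kept an unadjusted p under 0.05. The count was 8 without WT 2+1 DIV replicate 1 or 2. Of the 17 transport kinesins, 0 passed edgeR's test, 0 had an unadjusted p under 0.05 and DESeq2 called 0, with a median of -0.02 (range -0.99 to 0.42). Of the 10 other kinesins, 0 passed in edgeR, and 2 had an unadjusted p under 0.05, namely Kif24 (0.73 ± 0.18) and Kifc5b (1.32 ± 0.32), of which DESeq2 called Kifc5b.

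**Figure D4:**
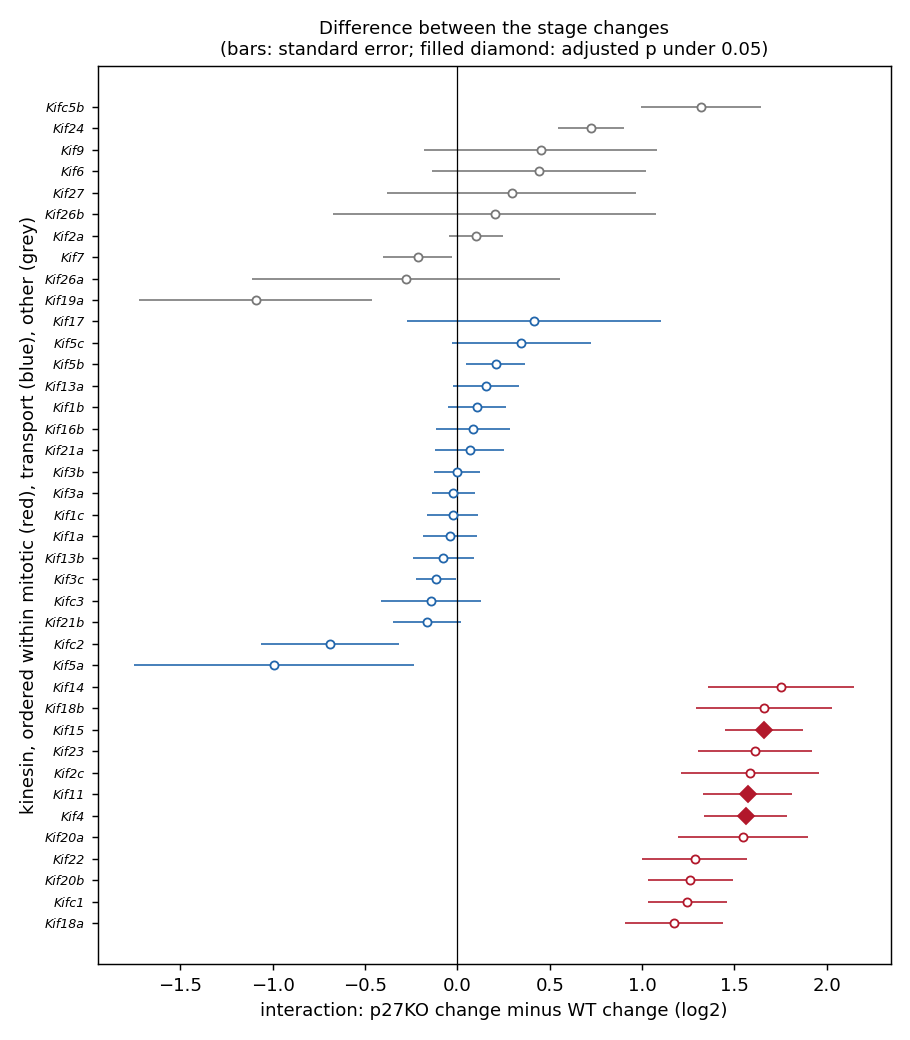
Interaction estimate (p27KO change minus WT change, log2, x axis) with its standard error for each of the 39 tested kinesins (y axis; red mitotic, blue transport, grey other), with filled diamonds for adjusted p under 0.05. The 12 mitotic estimates lie between 1.18 and 1.75, and the transport estimates between -0.99 and 0.42.

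At 2+1 DIV, all 12 mitotic kinesins were higher in p27KO than in WT, by 1.24 (Kif22) to 2.06 (Kif14) on the log2 scale (median 1.61), where 1.37% of all genes tested were called higher and 0.119% lower. The libraries of both genotypes did not overlap for any of the 12, as was the case for 34.1% of all genes tested. Kif15 (1.78 ± 0.15, adjusted p = 0.000385) and Kif4 (1.61 ± 0.16, adjusted p = 0.000792) had the smallest adjusted p-values. Without p27KO 2+1 DIV replicate 1, 5 of the 12 passed, and 5 passed when only the groups compared were fitted. Of the transport kinesins, 0 passed edgeR's test, 0 had an unadjusted p under 0.05 and DESeq2 called 0 (median 0.01, range -0.48 to 0.27). For 5 of the 17 the libraries did not overlap, a share no higher than that of all genes. Of the 10 other kinesins, Kifc5b was called higher.

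In neurospheres, 0 of the 39 kinesins differed between genotypes in edgeR's test, where 0.0536% of all genes tested were called in either direction, and DESeq2 also called 0. The mitotic median was 0.10 (range -0.05 to 0.30), and the largest standard error of a mitotic member was 0.27. Kif1a was the 1 kinesin with an unadjusted p under 0.05 (0.25 ± 0.10), and Kif5a had the largest estimate (1.04 ± 0.55, adjusted p = 1).

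Partners of the mitotic motors were read from a list of 11 genes. All 11 fell in WT (median -3.32) and in p27KO (median -1.74), where 31.2% and 27.3% of all genes tested were called lower. Of the 11, 5 passed the test of the interaction, where 0.28% of all genes tested were called higher. They were Aurkb, Incenp, Birc5 and Cdca8, the 4 members of the chromosomal passenger complex that Kif20a carries, and Hmmr. These 5 calls were lost in the same 7 fits with a library left out. Aurkb, the kinase of this complex, averaged 53.6 CPM in WT neurospheres and 3.21 CPM at 2+1 DIV, against 55.7 and 10.5 CPM in p27KO. Racgap1, the partner of Kif23, averaged 223.5 and 31.4 CPM in WT and 219.6 and 77.7 CPM in p27KO, with an interaction of 1.34 (adjusted p = 0.271). Cenpe, the kinesin of the kinetochore, whose symbol the member rule leaves out, averaged 124 and 19.1 CPM in WT and 133 and 67.2 CPM in p27KO. All 11 were higher in p27KO than in WT at 2+1 DIV (median 1.64), where 1.37% of all genes tested were called higher. In neurospheres their median difference was 0.01 (range -0.13 to 0.12).

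The transport kinesins changed member by member, with exchanges between close relatives in both genotypes. Kif21a (ENSMUSG00000022629, chr15:90933276-91049948), which restrains microtubule growth at the cell cortex and in growth cones, was present at 36.0, 29.3 and 25.3 CPM in the WT neurospheres, 173, 167 and 151 CPM in the WT 2+1 DIV libraries, 27.5 and 29.2 CPM in the p27KO neurospheres and 159 and 163 CPM in the p27KO 2+1 DIV libraries. The stages did not overlap and the genotypes did, and Kif21a had the highest estimate of its class (2.34 ± 0.12 in WT, adjusted p = 1.97e-07, and 2.41 ± 0.15 in p27KO, adjusted p = 2.19e-06). Its relative Kif21b (ENSMUSG00000041642, chr1:136131389-136177998), which regulates microtubules in dendrites and axons, was present at 380.4, 331 and 347 CPM in the WT neurospheres, 185, 146 and 157 CPM in the WT 2+1 DIV libraries, 355 and 459 CPM in the p27KO neurospheres and 161 and 173 CPM in the p27KO 2+1 DIV libraries. It fell in both genotypes (-1.22 ± 0.12 and -1.39 ± 0.15), with all libraries at 2+1 DIV below all neurospheres. Per kb of exon, Kif21a made up 13.8 ± 1.58% (SD, n = 3) of the summed level of the pair in WT neurospheres and 65.5 ± 2.44% at 2+1 DIV, and 11.7 ± 1.46% (n = 2) and 64.5 ± 0.924% in p27KO. The pair changed places in the order of levels in both genotypes.

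Kif3c (ENSMUSG00000020668, chr12:3365132-3406494), a partner of Kif3a alternative to Kif3b, was present at 190.3, 189 and 183 CPM in the WT neurospheres, 76.8, 70.7 and 79.6 CPM in the WT 2+1 DIV libraries, 181 and 189 CPM in the p27KO neurospheres and 70.4 and 67.2 CPM in the p27KO 2+1 DIV libraries. All libraries at 2+1 DIV were below all neurospheres. Kif3c had the lowest estimate of the transport class in both genotypes (-1.41 ± 0.07, adjusted p = 1.46e-07, and -1.53 ± 0.09, adjusted p = 1.36e-06), and shares exon bases with 1110002L01Rik on the other strand. Kif3a, the motor of ciliary transport that both partners need, rose (0.71 ± 0.07 and 0.69 ± 0.09). Kif3b rose in WT (0.23 ± 0.08, adjusted p = 0.0292) and had an estimate of 0.23 ± 0.10 in p27KO (adjusted p = 0.074), which passed with the replicate block in the WT libraries (adjusted p = 0.0494), with DESeq2 (adjusted p = 0.0323) or its size factors (adjusted p = 0.0467) and with the study's filter (adjusted p = 0.0180). The WT call was lost without the filter on low counts (adjusted p = 0.0529) and without WT neurosphere replicate 1 or 3 or WT 2+1 DIV replicate 2 or 3 (adjusted p = 0.0583 to 0.103). Per kb of exon, Kif3c made up 43.2 ± 0.789% of the summed Kif3 level in WT neurospheres and 16.3 ± 0.962% at 2+1 DIV, while Kif3a went from 35.7 ± 1.21% to 58.7 ± 1.47%. In p27KO, Kif3c went from 42.8 ± 1.68% to 15.2 ± 0.638%.

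Conventional kinesin is built on the heavy chains Kif5a, Kif5b and Kif5c, of which Kif5a and Kif5c are known as neuronal and Kif5b as general. Kif5a (ENSMUSG00000074657, chr10:127225696-127263348) was present at 5.26, 1.68 and 3.32 CPM in the WT neurospheres, 24.5, 8.54 and 10.3 CPM in the WT 2+1 DIV libraries, 8.35 and 5.36 CPM in the p27KO neurospheres and 12.1 and 17.2 CPM in the p27KO 2+1 DIV libraries. WT libraries of the stages did not overlap, WT 2+1 DIV replicate 1 stood above the rest, and the change was 1.98 ± 0.50 in WT (adjusted p = 0.00768). In p27KO the estimate was 0.99 ± 0.58 (adjusted p = 0.187), which passed with the replicate block in the WT libraries (adjusted p = 0.0133) or with only the groups compared (adjusted p = 0.0176), and the difference between the changes was -0.99 ± 0.76 (adjusted p = 1). Kif5c rose in both genotypes (1.43 ± 0.24 and 1.78 ± 0.30). Kif5b fell in WT (-0.39 ± 0.10, adjusted p = 0.00735), with an estimate of -0.18 ± 0.12 in p27KO (adjusted p = 0.257). Per kb of exon, Kif5b remained the main heavy chain, at 96.5 ± 0.908% of the summed Kif5 level in WT neurospheres and 87.4 ± 4.91% at 2+1 DIV, and at 95.9 ± 0.886% and 87.8 ± 2.28% in p27KO.

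Kif1a (ENSMUSG00000014602, chr1:93015464-93101951), which carries precursors of synaptic vesicles, was present at 614, 553 and 523 CPM in the WT neurospheres, 729, 657 and 679 CPM in the WT 2+1 DIV libraries, 605 and 718 CPM in the p27KO neurospheres and 777 and 793 CPM in the p27KO 2+1 DIV libraries. The stages did not overlap within either genotype, although they did across genotypes. The estimates did not pass the test (0.18 ± 0.09, adjusted p = 0.111, in WT and 0.15 ± 0.11, adjusted p = 0.313, in p27KO). With the study's filter, Kif1a was called higher in WT (0.28, adjusted p = 0.0268). Kif1b, which carries mitochondria and vesicles, rose in both genotypes (1.14 ± 0.10 and 1.25 ± 0.12), as did Kif1c (0.48 ± 0.09 and 0.46 ± 0.11). Per kb of exon, Kif1a was the most abundant kinesin in WT neurospheres (60.4 ± 4.96 CPM per kb), followed by Kif5b (52.5 ± 3.38), whose libraries overlapped with it. At 2+1 DIV in WT, Kif1b (75.4 ± 7.98 CPM per kb) and Kif1a (73.8 ± 3.95) led and did not differ beyond their spread, before Kif5b (43.2 ± 2.96) and Kif3a (36.8 ± 1.31). Kif20a and Kif11 ranked 5 and 6 in WT neurospheres, at 28.0 ± 0.253 and 27.5 ± 1.74 CPM per kb, and did not differ beyond their spread. Kif11 then ranked 14 in WT at 2+1 DIV (3.07 ± 0.724) and 11 in p27KO (9.45 ± 0.281).

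**Figure D5:**
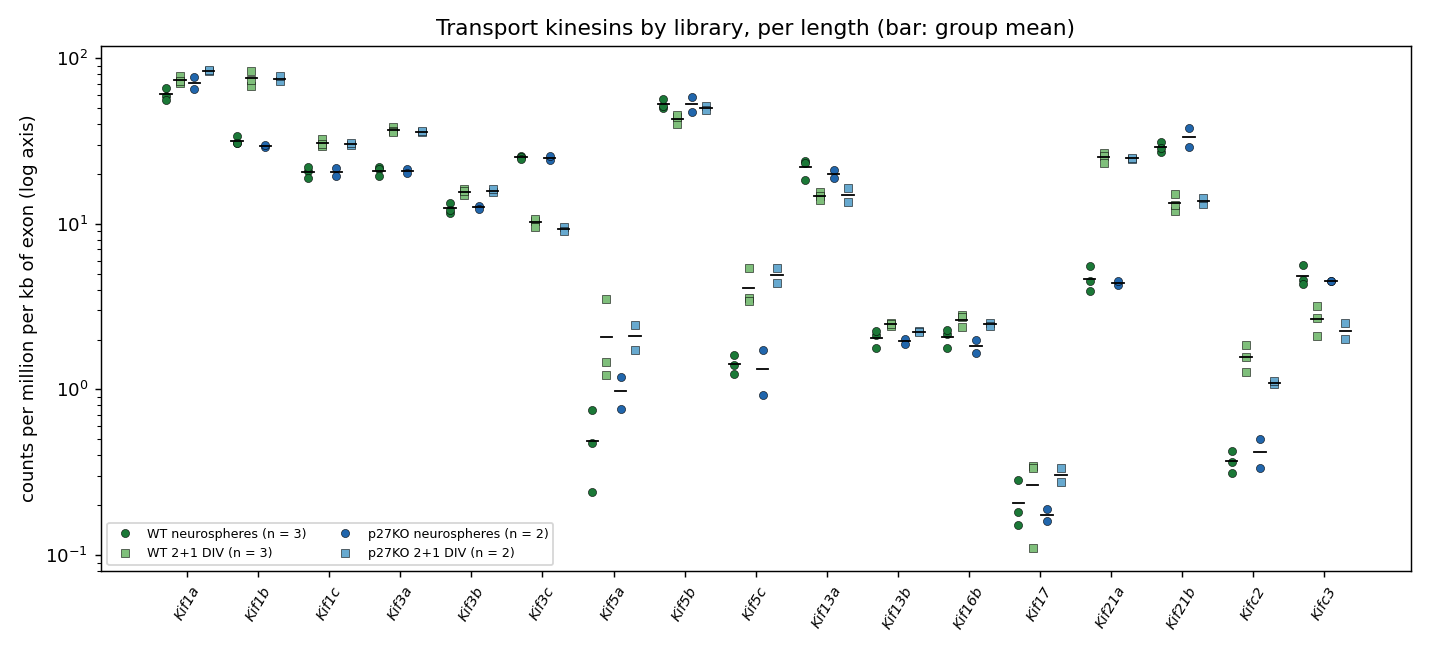
CPM per kb of exon (log axis) of the 17 transport kinesins in each library, with bars for group means (circles, neurospheres; squares, 2+1 DIV; green, WT; blue, p27KO). Kif21a rises from a mean of 4.66 to 25.3 in WT while Kif21b falls from 29.0 to 13.4.

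The remaining transport motors were mostly endosomal or directed to the minus end. Kifc2 (ENSMUSG00000004187, chr15:76659858-76668196), a minus-end motor known from neurons, was present at 1.67, 1.24 and 1.43 CPM in the WT neurospheres, 7.28, 6.18 and 4.98 CPM in the WT 2+1 DIV libraries, 1.32 and 1.97 CPM in the p27KO neurospheres and 4.24 and 4.41 CPM in the p27KO 2+1 DIV libraries. It rose in both genotypes (1.98 ± 0.24 and 1.30 ± 0.29), without overlap of the stages, and shares exon bases with Cyhr1 on the other strand. Kifc3 (ENSMUSG00000031788, chr8:95099828-95202812), a minus-end motor of epithelial junctions, was present at 24.1, 29.8 and 22.9 CPM in the WT neurospheres, 14.4, 16.9 and 11.2 CPM in the WT 2+1 DIV libraries, 24.0 and 23.9 CPM in the p27KO neurospheres and 13.3 and 10.6 CPM in the p27KO 2+1 DIV libraries. It fell in both (-0.96 ± 0.17 and -1.10 ± 0.21), without overlap of the stages, and shares exon bases with 3 genes on the other strand. Kif13a, a motor of recycling endosomes, fell in both (-0.68 ± 0.11 and -0.52 ± 0.14), and its p27KO call was lost without replicate 1 of the p27KO neurospheres (adjusted p = 0.0540) or of the p27KO 2+1 DIV libraries (adjusted p = 0.0887). Kif13b, Kif16b and Kif17 did not pass the test in either genotype, with estimates of 0.09 to 0.69. With the study's filter, Kif13b (0.26, adjusted p = 0.0397) and Kif16b (0.34, adjusted p = 0.0320) were called higher in WT and Kif16b in p27KO (0.41, adjusted p = 0.0417). Kif16b was also called in WT without WT 2+1 DIV replicate 1 (adjusted p = 0.0493), and Kif17 rested on 10 to 39 counts per library. The summed neuronal markers were 1229.8 to 1502 CPM in WT neurospheres and 1481 to 1723 CPM at 2+1 DIV, and 1518 to 1852 and 2002 to 2136 CPM in p27KO, most of it from Map2. Of 6 tested neuronal markers, Tubb3 and Dcx rose in WT, where 30.8% of all genes tested were called higher. In p27KO, Dcx rose, where 24.3% of all genes tested were called higher. The part of these markers in the changes of Kif5a, Kif5c and Kifc2 was not tested.

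Adaptors and regulators of the transport motors were read from a list of 18 genes, of which 17 met the count minimum within each stage. Of these 17, 7 rose and 3 fell in WT, where 30.8% of all genes tested were called higher and 31.2% lower, and 7 rose and 4 fell in p27KO, against 24.3% and 27.3% of all genes. Each of the 18 had an adjusted p of 1 in the edgeR test of the interaction. Mapk8ip2, a scaffold that links kinesin to cargo, went from 8.55 to 55.9 CPM on average in WT and from 11.9 to 47.3 CPM in p27KO (log2 fold change 2.61 and 1.88). Arl8a, which recruits kinesin to lysosomes, went from 169 to 348 and from 213 to 425 CPM (0.94 and 0.90). Kif1bp, a binding protein that inhibits several kinesins, went from 63.5 to 115 and from 62.3 to 104 CPM (0.75 and 0.64). Klc3, a light chain, averaged 1.62 and 0.314 CPM in WT and 2.20 and 0.0648 CPM in p27KO, and as it met the count minimum only through the neurospheres, it was left out of these counts. Trak2 and the mitochondrial Rhot1 and Rhot2 fell in both genotypes, whereas Trak1 rose. Of the subunits of cytoplasmic dynein, the motor that walks the other way, 9 were tested, of which 3 fell in WT (Dync1li1, Dync1li2 and Dynll1), 2 fell in p27KO (Dync1li1 and Dynll1) and the others did not pass the test. These shares are near those of all genes called lower (31.2% and 27.3%).

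Of the 10 other kinesins tested, 6 rose and 3 fell in WT, where 30.8% of all genes tested were called higher and 31.2% lower, and 5 rose and 3 fell in p27KO, against 24.3% and 27.3% of all genes. The 3 highest estimates in WT were those of Kif19a, Kif6 and Kif27, and that of Kif26b (2.73 ± 0.56) lay within its error of them. In p27KO, Kif9 (2.85 ± 0.51) and Kif26b (2.93 ± 0.70) had higher estimates than Kif19a. Kif19a (ENSMUSG00000010021, chr11:114765388-114790739), which takes microtubules apart at ciliary tips, was present at 0.782, 0.758 and 0.830 CPM in the WT neurospheres, 12.5, 5.14 and 5.50 CPM in the WT 2+1 DIV libraries, 0.620 and 1.38 CPM in the p27KO neurospheres and 4.004 and 4.99 CPM in the p27KO 2+1 DIV libraries. Stages did not overlap, WT 2+1 DIV replicate 1 stood apart, and Kif19a rose by 3.17 ± 0.41 in WT and 2.08 ± 0.49 in p27KO. Kif6 (ENSMUSG00000023999, chr17:49615136-49909847), a motor of ependymal cilia, was present at 0.261, 0.678 and 0.599 CPM in the WT neurospheres, 5.19, 4.23 and 4.67 CPM in the WT 2+1 DIV libraries, 0.413 and 0.197 CPM in the p27KO neurospheres and 3.09 and 4.54 CPM in the p27KO 2+1 DIV libraries. All libraries at 2+1 DIV were above all neurospheres. Its rise was 3.05 ± 0.36 in WT and 3.50 ± 0.47 in p27KO, and its neurosphere values rested on 4 to 17 counts per library. Kif27 (ENSMUSG00000060176, chr13:58287502-58359122), also linked to motile cilia, was present at 0.261, 0.519 and 0.323 CPM in the WT neurospheres, 2.44, 3.19 and 3.32 CPM in the WT 2+1 DIV libraries, 0.124 and 0.492 CPM in the p27KO neurospheres and 2.89 and 3.01 CPM in the p27KO 2+1 DIV libraries. It rose, without overlap of the stages, by 2.88 ± 0.42 and 3.18 ± 0.53 from 3 to 13 counts per neurosphere library. Kif9 and Kif26b rose in both genotypes as well (2.40 and 2.73 in WT), and Kif7, which regulates Hedgehog signalling in the cilium, rose in WT (0.37 ± 0.12, adjusted p = 0.0192) with an estimate of 0.16 ± 0.14 in p27KO. The call of Kif7 was lost without WT neurosphere replicate 2 or 3 or WT 2+1 DIV replicate 1 (adjusted p = 0.0526 to 0.0622), and that of Kif26b in p27KO without p27KO neurosphere replicate 1 (adjusted p = 0.0556). Kif26a did not pass the test in either genotype (0.42 ± 0.52 and 0.14 ± 0.65), and it was called in WT without 2+1 DIV replicate 3 (0.88, adjusted p = 0.0384).

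Markers of ciliated ependymal cells were read beside these genes. Foxj1 and Rsph1 rose in both genotypes, and Dnah11 met the count minimum only through the 2+1 DIV libraries, so that its change is not counted. The sum of all 5 was 14.7 to 20.4 CPM in WT neurospheres, 87.7 to 104.6 CPM in WT at 2+1 DIV, 15.6 to 18.7 CPM in p27KO neurospheres and 87.1 to 93.2 CPM in p27KO at 2+1 DIV. Most of it was Foxj1, the regulator of motile cilia, at a mean of 16.7 and 90.9 CPM in WT, whereas Ccdc153 averaged at most 0.235 CPM and Tmem212 was at 0 in all WT libraries. Their part in the rise of these kinesins was not tested.

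The 3 other kinesins that fell were Kifc5b, Kif24 and Kif2a. Kifc5b (ENSMUSG00000024301, chr17:26917091-26932583), a close relative of Kifc1, was present at 20.3, 16.7 and 15.6 CPM in the WT neurospheres, 2.60, 1.99 and 2.21 CPM in the WT 2+1 DIV libraries, 16.1 and 19.2 CPM in the p27KO neurospheres and 7.14 and 4.18 CPM in the p27KO 2+1 DIV libraries. Neither the stages nor, at 2+1 DIV, the genotypes overlapped. It changed by -3.06 ± 0.22 in WT and -1.74 ± 0.25 in p27KO and was higher in p27KO at 2+1 DIV (1.35 ± 0.24, adjusted p = 0.0176). The last call was lost without WT 2+1 DIV replicate 2 or 3 or p27KO 2+1 DIV replicate 1 (adjusted p = 0.0553 to 0.204) and with only the groups compared (adjusted p = 0.162). As reads of Kifc1 may be divided between these genes, its values are uncertain. Kif24 (ENSMUSG00000028438, chr4:41390745-41464887), which keeps centrioles from growing cilia, was present at 24.8, 23.3 and 24.4 CPM in the WT neurospheres, 6.72, 6.96 and 6.44 CPM in the WT 2+1 DIV libraries, 21.0 and 21.8 CPM in the p27KO neurospheres and 8.64 and 11.02 CPM in the p27KO 2+1 DIV libraries. It fell in both genotypes (-1.95 ± 0.12 and -1.23 ± 0.14), and its p27KO 2+1 DIV libraries lay above those of WT, a difference that did not pass the test (0.57 ± 0.13, adjusted p = 0.068) but was called by DESeq2 (adjusted p = 0.0112). Kif2a (ENSMUSG00000021693, chr13:106958996-107022126), which prunes microtubules in neurites and at spindle poles, was present at 128, 131 and 136 CPM in the WT neurospheres, 86.1, 89.2 and 95.6 CPM in the WT 2+1 DIV libraries, 152 and 122 CPM in the p27KO neurospheres and 94.5 and 106 CPM in the p27KO 2+1 DIV libraries. The stages did not overlap, and it fell by less than the mitotic members in WT (-0.65 ± 0.09) and in p27KO (-0.55 ± 0.11). Its interaction was 0.10 ± 0.15, and its difference at 2+1 DIV was 0.17 ± 0.10 (p27KO minus WT, adjusted p = 0.55). Exon bases are also shared with genes on the other strand by Kif18a (Mettl15), Kif20a (Cdc23), Kif22 (Gm31749), Kif2a (Dimt1), Kif6 (Gm16554), Kif26b (Gm16564), Kif27 (Gm26555), Kif7 (Ticrr and 9330171B17Rik) and Kif5b (Gm17036). On the same strand, they are shared by Kif17 (Sh2d5), Kif1c (Mir6925) and Kif27 (Mir6369). As no source used here states whether strand was used in counting, reads of these partners may be included.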

How the data were processed

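Per the labels and the study's methods, the authors extracted RNA with the miRNeasy micro kit, made libraries with the Ovation kits, aligned reads with STAR to the Ensembl mouse transcriptome (GRCm38) and ran RSEM. The labels call the RNA polyA, while the methods describe no polyA selection. The deposited table holds RSEM's estimated counts of 48795 genes as whole numbers, without normalization, and its 10 columns match the sample titles. Symbols, positions and exon lengths came from the GENCODE annotation of GRCm38 (48349 genes matched), and promoter windows from RefSeq.

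TMM scaling and a robust quasi-likelihood fit of the 4 groups were used (edgeR 4.0.16, limma 3.58.1, R 4.3.3), after discarding genes without at least 10 counts in 2 or more libraries. Tests were two-sided, with Benjamini-Hochberg adjustment over 16797 genes and a threshold of 0.05. CPM values are counts per 1000000 of the library total without TMM factors. The scripts were tested on simulated data with known changes. Members, classes, partner lists and markers were chosen with earlier results of these data known. Genes given in every library are those named by the member rule, Kif4, the 3 largest rises and falls per class in WT and the 5 largest interactions among members with a mean of at least 1 CPM.

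Alternatives were DESeq2 1.42.0, its size factors in edgeR, the study's filter (genes with less than 1 CPM in 4 or more libraries discarded), no filter, only the groups compared, the replicate number as a block and each library left out. To see whether numbers pair libraries, deviations from the group means were correlated over genes. Same-numbered WT libraries correlated at 0.150, 0.198 and 0.211 and others at -0.144 to -0.0424, so that WT numbers were taken to pair libraries, although no source used here says what they share. The tests hold no block, and the fit with a block in the WT libraries is given beside results whose call it changes. The p27KO libraries of the same number correlated at -0.101. No 2 libraries agreed within sampling noise. At these depths, precision was set mostly by the spread between 2 or 3 libraries and, for members near 1 CPM, by counting error. ATAC-seq data of the study were not used here.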

Additional observations from a re-analysis of the deposited data

Results flagged for a closer look

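The stage change differed between genotypes, by the interaction test of edgeR's quasi-likelihood model, for 3 kinesins. The p27KO change minus the WT change was 1.66 on the log2 scale for Kif15 (adjusted p = 0.0234), 1.56 for Kif4 (adjusted p = 0.0246) and 1.57 for Kif11 (adjusted p = 0.0316). In each, both p27KO libraries at 2+1 DIV were above the 3 WT libraries. All 3 calls, and those of all other genes in this test, were lost when a library of the WT neurospheres, the p27KO neurospheres or the p27KO cells at 2+1 DIV was left out, whichever it was, and the smallest adjusted p-values of the mitotic class were then 0.0624 to 0.159. Sex and genotype cannot be told apart in these libraries, and the part of proliferation markers that moved alike was not tested.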

How the results depend on the processing

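Under 18 alternatives, 1935 values were recomputed, of every stage change of the 39 kinesins, of the mitotic interactions and of the other genotype differences that were called or named. Of these, 1832 kept their direction and their side of the threshold, 55 lost a call, 45 gained one and 3 reversed. The 3 belong to Kif26a, which was not called and ranged from -0.064 to 0.88 in WT and from -0.28 to 0.48 in p27KO with each library left out. The counts of mitotic kinesins that fell were 12 in both genotypes under every alternative. The count of 3 mitotic members with an interaction became 12 with DESeq2, 5 without a filter, 5 with the replicate block over all libraries and 8 with the replicate block in WT libraries. With each library left out it ranged from 0 to 8. Exchanging the p27KO numbers in the block, an alternative chosen after seeing the data, gave 4. The blocks changed no count of mitotic or transport calls in the changes between stages by over 1.5 times. The count of mitotic members higher in p27KO at 2+1 DIV was 5 when only the groups compared were fitted, and 5 to 12 with each library left out. With each library left out, the mitotic medians ranged from -3.39 to -3.08 in WT, 1.33 to 1.68 in the interaction and 1.36 to 1.74 at 2+1 DIV, and the transport median in WT from 0.19 to 0.34. With the study's filter the transport median in WT was 0.33, with 11 members higher and 5 lower, and in p27KO 8 were higher and 4 lower. Of the 12859 genes tested with this filter, 8667 were called in WT and 7424 in p27KO, in either direction. Of the other kinesins, 1 rose in WT and 0 in p27KO, because most ciliary members stayed under 1 CPM in neurospheres and were not tested. The causes of the other shifts were not tested. Depth limits Kif6, Kif9, Kif17, Kif26b, Kif27 and Kif28, which rested on few counts.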

Other observations

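Of the 3 kinesins that were not tested, Kif2b, a mitotic depolymerase, and Kif12 had 0 counts in all 10 libraries. Kif28 reached at most 11 counts, with 0 to 0.158 CPM in WT and p27KO neurospheres and WT libraries at 2+1 DIV, and 0.357 and 0.495 CPM in the p27KO libraries at 2+1 DIV. It shares exon bases with Ahctf1 on the same strand.

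In all 12 mitotic kinesins, p27KO replicate 2 was the lower of the libraries at 2+1 DIV. WT replicate 2 was the lowest of its group, but no source used here ties p27KO numbers to WT numbers. In neurospheres no library was lowest in all 12.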
